A study of Mus musculus with 25 samples.

Results

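Cytochrome P450 enzymes of families 1 to 4 were followed in mouse hepatocytes, the liver's parenchymal cells, through 49 genes listed by name, 2 from Cyp1a and the rest from 15 further subfamilies of families 2, 3 and 4. All 49 were found by identifier among the 18668 genes of the hepatocyte count table, and all 49 passed the filter on low counts that left 14339 genes to test. A further 25 genes of the same families were in that table without being on the list, and 11 of them were tested. Membership was set by names and family numbers, but the 49 genes were chosen with earlier results of these data known. The list is therefore not an unbiased sample of these families.

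P450 enzymes are haem proteins, mostly of the endoplasmic reticulum, that insert an oxygen atom into lipids, steroids, bile acids, drugs and toxins, with electrons delivered by P450 oxidoreductase (Por) and cytochrome b5. Families 1 to 3 handle much of the foreign chemistry that reaches the liver, and family 4 mainly hydroxylates fatty acids and eicosanoids. Their genes are classic readouts of nuclear and xenobiotic receptors: Cyp1a1 and Cyp1a2 of AhR, Cyp2b10 of CAR, Cyp3a11 of PXR, and Cyp4a10 and Cyp4a14 of PPARα. Several are zoned along the liver lobule, with Cyp2e1 and Cyp1a2 high near the central vein and Cyp2f2 high near the portal vein, and lower hepatic P450 expression is a long-known feature of inflammation.

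RNA was sequenced in bulk from sorted hepatocytes of 5 groups. The IL-6 group (n = 3) was wild type and had received an IL-6 plasmid into the tail vein by hydrodynamic injection, which delivers DNA to hepatocytes, 1 week earlier. The IL-6 STAT3KO group (n = 3) carried floxed Stat3 and had received AAV-TBG-Cre, a virus whose hepatocyte promoter TBG drives Cre recombinase, 2 weeks earlier and the IL-6 plasmid 1 week earlier. The DDC group (n = 2) carried floxed Stat3, had received AAV-TBG-GFP 2 weeks earlier and ate DDC, a compound that injures bile ducts and disturbs haem synthesis, for 1 week; the DDC STAT3KO group (n = 3) had AAV-TBG-Cre in place of AAV-TBG-GFP. The GFP group (n = 2) was wild type and had received a GFP plasmid 1 week earlier by the same injection as the IL-6 groups. The mice carried a mixed C57BL/6J and 129SV background, and their age and sex are not given in the labels. Genotype, vector and, in part, injection therefore differed along with the stimulus wherever plasmid groups were set against floxed groups, and their contributions cannot be told apart. In the same series, 12 libraries of sorted liver immune cells from wild-type mice gave the levels outside hepatocytes.

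Hepatocyte libraries held 13.6 to 18.4 M counts. Levels are in CPM, counts scaled to a common library size after TMM normalization, fold changes and adjusted p-values are from edgeR quasi-likelihood tests fitted to all 13 libraries and adjusted over all 14339 genes, and a gene is said to have risen or fallen only at an adjusted p under 0.05. The error after a log2 fold change is its approximate SE. Whether replicates are separate animals is not stated in the labels, and the p-values cover only library-to-library spread, part or all of which may be technical. Because the libraries are bulk, fewer cells making a transcript and less transcript per cell cannot be told apart.

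Stat3, the floxed gene, stood at 340, 351 and 424 CPM in IL-6 libraries, 116, 96.0 and 116 CPM in IL-6 STAT3KO libraries, 150 and 112 CPM in DDC libraries, 62.0, 56.2 and 87.2 CPM in DDC STAT3KO libraries, and 109 and 98.8 CPM in GFP libraries. Counts summed over the whole gene do not show whether floxed exons were lost, and IL-6 STAT3KO libraries held as much Stat3 as GFP libraries. Il6, the gene on the plasmid, stood at 4.89, 3.20 and 351 CPM in IL-6 libraries, 0.743, 0.559 and 1.05 CPM in IL-6 STAT3KO libraries, and at most 0.0688 CPM in the other groups. The IL-6 STAT3KO and IL-6 groups thus differed in Il6 level as well as in genotype and vector. Socs3, a direct STAT3 target, stood at 270, 292 and 216 CPM in IL-6 libraries and at 3.97 to 6.68 CPM in IL-6 STAT3KO libraries.

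Some libraries stood apart. IL-6 replicate 3 held 7795 EGFP transgene counts, where IL-6 replicates 1 and 2 held 117 and 93, and it held the most Il6 and the least Alb (6384 CPM, against 84120 and 33870 CPM). DDC libraries held 22357 and 27571 EGFP counts and GFP libraries 34 and 35. DDC STAT3KO replicate 3 carried the highest Cyp1a1, Cyp2b10, Cyp4a10 and Cyp4a14 of all 13 libraries. Counts of P450 genes and readouts that rest on these libraries are given with and without them. Leaving both out was an alternative chosen after the data were seen. The 13 hepatocyte markers summed to between 60100 and 173000 CPM over all libraries, but in IL-6 against GFP 2 of them rose and 4 fell. Fgb had 40320, 32050 and 33120 CPM in IL-6 and 4252 and 3618 CPM in GFP libraries. Ttr had 2183, 1308 and 1010 CPM in IL-6 and 6247 and 5849 CPM in GFP libraries. The sum therefore does not measure hepatocyte content. Markers of other cells moved too: the sum of 6 cholangiocyte genes in the table reached 2200 to 10700 CPM in IL-6, 9.9 to 50.4 CPM in IL-6 STAT3KO, 533 to 594 CPM in DDC, 10.1 to 284 CPM in DDC STAT3KO and 6.27 to 7.7 CPM in GFP libraries. In IL-6 libraries nearly all of it was Spp1 (2113 to 10650 CPM), while the defining marker Epcam stood at 0.801 to 1.82 CPM in IL-6 libraries and at 0 in IL-6 STAT3KO and GFP libraries. The sum of 13 Kupffer cell and macrophage genes was 126 to 241 CPM in IL-6, 150 to 399 CPM in IL-6 STAT3KO, 383 to 648 CPM in DDC, 78.3 to 610 CPM in DDC STAT3KO and 42.3 to 58.7 CPM in GFP libraries, and no gene of it was at 0 throughout a group. The sum of 10 stellate cell genes was 88 to 174 CPM in IL-6, 76.1 to 268 CPM in IL-6 STAT3KO, 317 to 500 CPM in DDC, 127 to 419 CPM in DDC STAT3KO and 102 to 116 CPM in GFP libraries. That of 10 sinusoidal endothelial genes was 70.3 to 244 CPM in IL-6, 295 to 353 CPM in DDC and 203 to 235 CPM in GFP libraries. The 2 T and B cell genes in the table summed to 10.7 to 36.8 CPM in IL-6 and 0.064 to 0.0688 CPM in GFP libraries, and the 3 neutrophil genes to 0.748 to 8.6 CPM in IL-6 and at most 0.064 CPM in GFP libraries. Against GFP, 25.9% of all tested genes were called in IL-6 and 18.6% in DDC hepatocytes. Of 5 tested cholangiocyte genes 3 were higher and 1 lower in IL-6, and 5 were higher in DDC. Of 13 macrophage genes 5 were higher in IL-6 and 11 in DDC hepatocytes. The part of these other cells in the P450 results was not tested.

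The P450 genes took a much smaller part of the hepatocyte RNA under plasmid IL-6. They accounted for 0.653%, 0.548% and 0.62% of counts in IL-6 libraries, 2.82%, 2.39% and 2.96% in IL-6 STAT3KO libraries, 3.79% and 2.71% in DDC libraries, 2.93%, 3.24% and 4.58% in DDC STAT3KO libraries, and 3.15% and 2.63% in GFP libraries. The 3 IL-6 libraries lay below the other 10, and the remaining groups overlapped one another. With 3 against 2 or 3 libraries no exact test of this share can reach 0.05, so it stands as a description. IL-6 libraries also had the lowest TMM factors (0.767 to 0.883, against 0.975 to 1.23 in the other 10), and mitochondrial genes took 2.05% to 2.76% of their counts, against 2.03% in DDC STAT3KO replicate 1 and 4.16% to 5.92% in the other 9 libraries. The part of these differences in the P450 share was not tested.

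**Figure D1:**
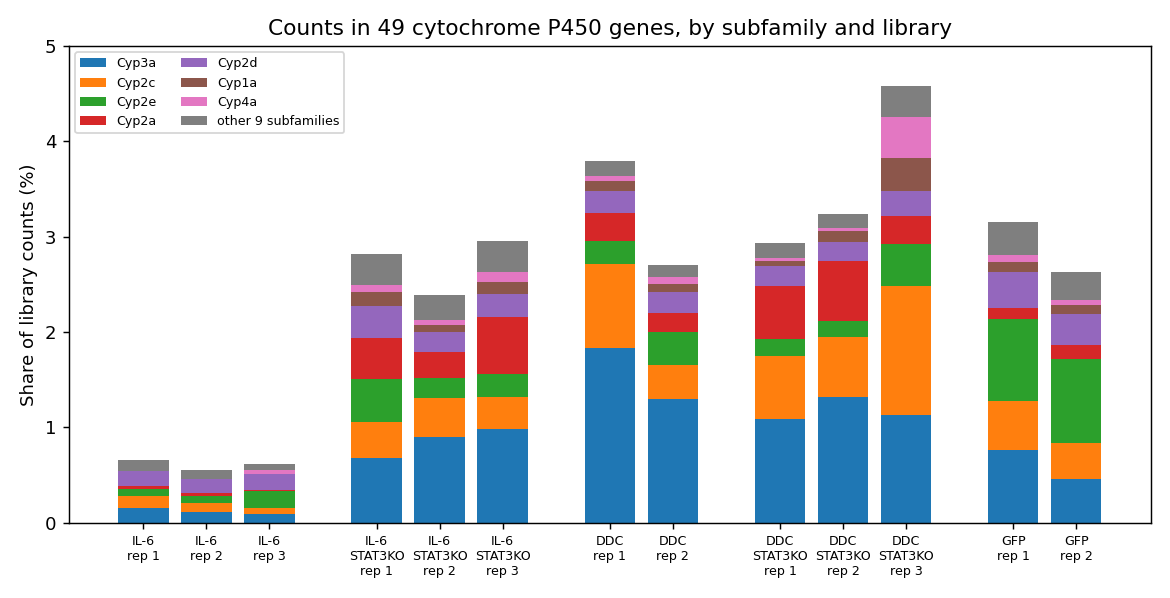
Share of each library's counts in the 49 P450 genes (y axis, percent), stacked by subfamily, with 1 bar per library grouped as IL-6, IL-6 STAT3KO, DDC, DDC STAT3KO and GFP. The 3 IL-6 bars reach 0.548% to 0.653%, while the other 10 reach 2.39% to 4.58%; Cyp2e takes the largest part of the GFP bars and Cyp3a the largest part of the DDC bars.

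The make-up of that share differed between groups as well as its size. On a scale per kilobase of annotated exon, which allows levels of different genes to be set side by side, Cyp2e1 led in IL-6 hepatocytes (mean 586 CPM per kb, 411 to 908 over libraries), followed by Cyp2d26 (439) and Cyp2c70 (396), whose ranges overlapped with it. Cyp2a5 (1760, 933 to 2500), Cyp3a11 (1420) and Cyp2e1 (1410) led in IL-6 STAT3KO hepatocytes with overlapping ranges. In DDC hepatocytes Cyp3a11 led (2510, 1960 to 3060) over Cyp2e1 (1160, 991 to 1340), and these ranges did not overlap. In DDC STAT3KO hepatocytes Cyp3a11 (1920, 1740 to 2040), Cyp2a5 (1780) and Cyp2c29 (1760) stood close together within their spread. In GFP hepatocytes Cyp2e1 (4080, 4080 to 4090) exceeded Cyp3a11 (982, 712 to 1250) and Cyp2d9 (636, 575 to 698).

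Plasmid IL-6 was compared with plasmid GFP to ask what the cytokine did to wild-type hepatocytes. Of the 49 P450 genes 25 fell and 2 rose, while 12.2% of all tested genes fell and 13.7% rose. The median log2 fold change was -1.40 over the P450 genes and 0.04 over all genes, and it stayed at -1.40 when genes absent from a group were set to their count bound. In 34 P450 genes every IL-6 library lay below both GFP libraries (29.2% of all genes), and in 2 every IL-6 library lay above (31.4%).

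The largest falls were of Cyp2c29, Cyp1a2, Cyp2f2, the low-level Cyp2g1, Cyp2a5 and Cyp2c54. Cyp2c29 (chromosome 19, 39269405 to 39330713, forward strand, GRCm38), which makes epoxides of arachidonic acid, had 45.4, 24.0 and 80.2 CPM in IL-6 libraries and 2076 and 963 CPM in GFP libraries, a log2 fold change of -4.93 ± 0.72 (adjusted p = 0.000572). Cyp1a2 (chromosome 9, 57676937 to 57683703, reverse strand), which metabolises caffeine and aromatic amines, had 49.6, 46.3 and 15.3 CPM in IL-6 and 1081 and 924 CPM in GFP libraries (-4.76 ± 0.74, adjusted p = 0.000855). In both genes the highest IL-6 library lay far below the lowest GFP library. Cyp2f2, the naphthalene-activating enzyme of the periportal zone, had 41.7, 34.1 and 37.7 CPM in IL-6 and 955 and 898 CPM in GFP libraries (-4.61 ± 0.36, adjusted p = 1.39e-05). Cyp2a5, the coumarin hydroxylase, had 13.7, 10.5 and 52.9 CPM in IL-6 and 390 and 737 CPM in GFP libraries (-4.45 ± 0.68, adjusted p = 0.000723). Cyp2f2 was tight within each group, whereas Cyp2a5 varied several-fold within IL-6 and still did not reach the GFP values. Cyp2c54 had 11.9, 12.6 and 18.7 CPM in IL-6 and 258 and 266 CPM in GFP libraries (-4.18 ± 0.70, adjusted p = 0.0013). Cyp2g1 had 2 counts over the IL-6 libraries and 37 over the GFP libraries, and was 27.6-fold lower with a 95% counting interval of 7.11 to 236 (edgeR adjusted p = 0.0031).

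The major catalysts fell less steeply. Cyp2e1, which oxidises ethanol and paracetamol, had 948, 888 and 1959 CPM in IL-6 and 8794 and 8830 CPM in GFP libraries (-2.80 ± 0.54, adjusted p = 0.00296). Cyp3a11, the main Cyp3a of mouse liver, had 971, 472 and 228 CPM in IL-6 and 6371 and 3628 CPM in GFP libraries (-3.17 ± 0.51, adjusted p = 0.000981). Neither gene overlapped between groups, though the IL-6 library that was highest for Cyp2e1, replicate 3, was the lowest for Cyp3a11. Falls in both a pericentral gene such as Cyp1a2 and a periportal gene such as Cyp2f2 were seen. Outside the P450 genes 3 of 10 pericentral genes fell and 1 rose while 4 of 10 periportal genes fell and 1 rose. Over all tested genes 12.2% fell and 13.7% rose.

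Subfamilies were not uniform. All 11 Cyp2c genes had a negative log2 fold change (-4.93 to -0.46) and 7 of them fell, while Cyp2c70, which makes muricholic bile acids, had 1278, 791 and 283 CPM in IL-6 and 1106 and 1050 CPM in GFP libraries and did not pass (-0.46 ± 0.56, adjusted p = 0.585). Of 5 Cyp2d genes 4 fell, by no more than 1.55 on the log2 scale, and Cyp2d26 overlapped between groups (996, 742 and 621 CPM in IL-6, 953 and 782 CPM in GFP; -0.14 ± 0.46, adjusted p = 0.854). In Cyp4f, 3 of 4 genes fell, led by the leukotriene B4 hydroxylase Cyp4f14 with 56.5, 34.6 and 32.2 CPM in IL-6 and 344 and 270 CPM in GFP libraries (-2.90 ± 0.29, adjusted p = 5.65e-05). The vitamin D 25-hydroxylase Cyp2r1 had 19.3, 14.7 and 12.2 CPM in IL-6 and 20.4 and 16.1 CPM in GFP libraries (-0.25 ± 0.31, adjusted p = 0.593).

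Within Cyp3a, 1 abundant gene went the other way. Cyp3a13 (ENSMUSG00000029727, chromosome 5, 137892932 to 137921619, reverse strand), a constitutive Cyp3a of liver and gut, had 774, 699 and 745 CPM in IL-6 libraries and 174 and 197 CPM in GFP libraries, a rise of 2.00 ± 0.23 on the log2 scale (adjusted p = 0.000143). Every IL-6 library lay above both GFP libraries by several times the spread within either group, and none of Cyp3a13's transcript 50-mers was shared with another gene. Other Cyp3a genes, which lie apart from it on the same chromosome, fell: Cyp3a25 (178, 107 and 120 CPM in IL-6, 1174 and 778 CPM in GFP; -2.86 ± 0.39) and Cyp3a59 (18.0, 8.32 and 7.36 CPM in IL-6, 93.2 and 38.8 CPM in GFP; -2.56 ± 0.50), with adjusted p = 0.000369 and 0.00303. The other gene that rose, Cyp3a16, is a low-level gene best known from fetal liver, with 55 counts over the IL-6 libraries and 0 over the GFP libraries, at least 12.3-fold higher against a floor of 3 counts over the group. Its call was lost whenever a single library was left out.

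Of the AhR, CAR and PPARα readouts, Cyp1a1, Cyp2b10, Cyp4a10 and Cyp4a14 gave no call. Cyp1a1 stayed near the limit of counting, at 1.89, 0.801 and 1.68 CPM in IL-6 and 0.960 and 0.413 CPM in GFP libraries (1.06 ± 1.36, adjusted p = 0.603). Cyp2b10 had 0.473, 1.54 and 4.80 CPM in IL-6 and 7.42 and 10.5 CPM in GFP libraries (-1.95 ± 1.12, adjusted p = 0.222), with no overlap. Cyp4a10 had 0.316, 1.11 and 92.5 CPM in IL-6 and 20.8 and 66.2 CPM in GFP libraries (-0.47 ± 1.77, adjusted p = 0.875), and Cyp4a14 had 0, 0.555 and 55.5 CPM in IL-6 and 6.91 and 27.8 CPM in GFP libraries (0.11 ± 1.78, adjusted p = 0.972). For these Cyp4a genes IL-6 replicates 1 and 2 were the lowest of all libraries and replicate 3 exceeded both GFP libraries. With IL-6 replicate 3 and DDC STAT3KO replicate 3 left out, Cyp4a10 was -5.85 (adjusted p = 0.00164), Cyp4a14 -5.79 (adjusted p = 0.00425) and Cyp2b10 -3.09 (adjusted p = 0.00724), and 30 P450 genes fell and 2 rose.

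**Figure D2:**
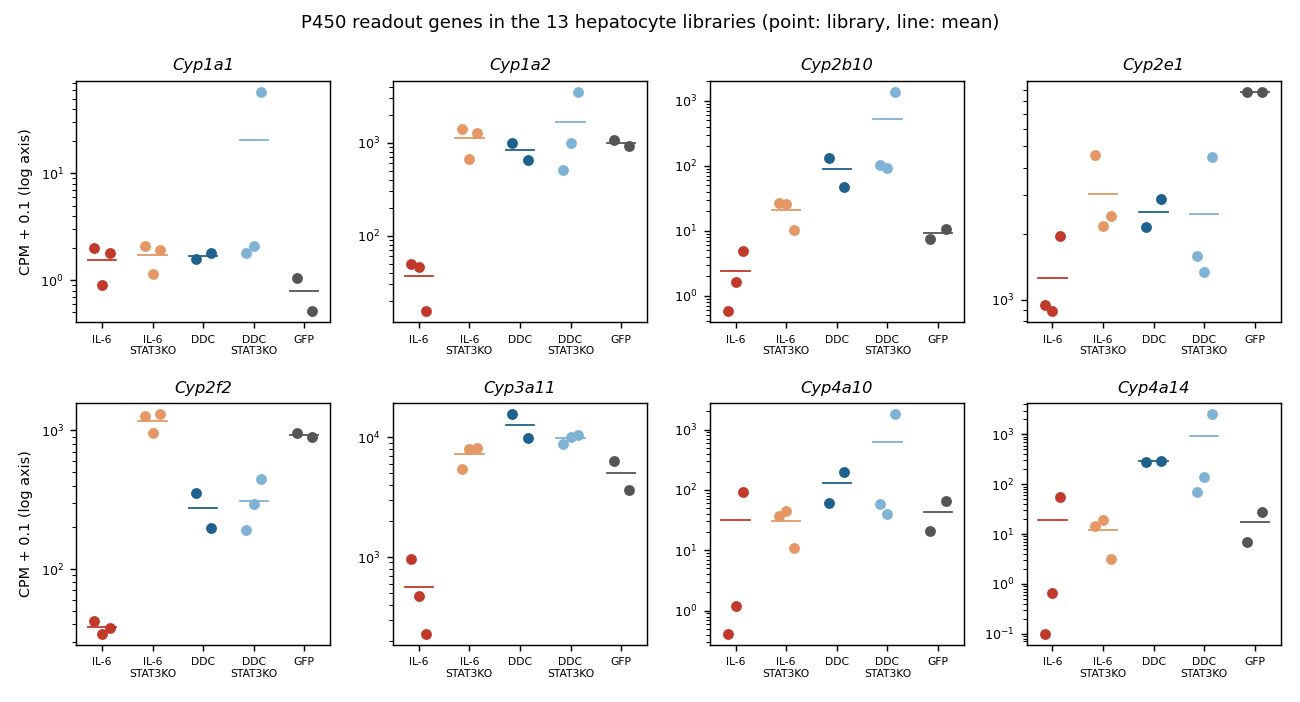
CPM plus 0.1 on a log axis for 8 P450 readout genes; each point is a library, each line a group mean, and groups run as IL-6, IL-6 STAT3KO, DDC, DDC STAT3KO and GFP. Cyp1a2, Cyp2f2 and Cyp3a11 are lowest in all 3 IL-6 libraries, whereas Cyp4a10 and Cyp4a14 span 0.316 to 92.5 and 0 to 55.5 CPM within that group, and 1 DDC STAT3KO library is far above the others for Cyp1a1, Cyp2b10, Cyp4a10 and Cyp4a14.

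Partners of the P450 enzymes were followed in the same comparison, in which 25.9% of all tested genes were called in either direction. The lists of partners, regulators and receptor targets are read against that share. Of 6 redox partner genes 5 fell and 0 rose in edgeR, with a median of -1.10. Cytochrome b5 (Cyb5a) had 404, 351 and 251 CPM in IL-6 and 1006 and 1024 CPM in GFP libraries (-1.60 ± 0.35, adjusted p = 0.00652), and Por had 297, 262 and 355 CPM in IL-6 and 452 and 896 CPM in GFP libraries (-1.15 ± 0.39, adjusted p = 0.0483). Of 12 genes of haem supply and breakdown 2 fell and 2 rose (median -0.41): Alas1, the rate-limiting enzyme of haem synthesis, was lower (-2.33 ± 0.59, adjusted p = 0.0126) along with ferrochelatase Fech (-0.84 ± 0.20, adjusted p = 0.0103), and haem oxygenases Hmox1 (2.60 ± 0.56, adjusted p = 0.00523) and Hmox2 (0.51 ± 0.16, adjusted p = 0.0337) were higher.

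Of 22 xenobiotic receptors and liver regulators 5 fell and 2 rose, with a median of -0.36, where 12.2% of all tested genes fell and 13.7% rose. CAR (Nr1i3) had 5.13, 8.01 and 8.85 CPM in IL-6 and 37.9 and 38.2 CPM in GFP libraries (-2.37 ± 0.42, adjusted p = 0.00186), whereas PXR (Nr1i2) overlapped, with 67.6, 63.0 and 73.4 CPM in IL-6 against 73.1 and 95.6 CPM in GFP libraries (-0.31 ± 0.35, adjusted p = 0.555). The strongest calls besides CAR were the female-biased repressor Cux2 (4.65 ± 0.56, adjusted p = 0.00016) and the liver factors Foxa1 (-1.30 ± 0.26, adjusted p = 0.00396) and Cebpa (-1.61 ± 0.33, adjusted p = 0.00454). Among 12 CAR and PXR targets outside the P450 genes 6 fell and 1 rose (median -1.40), led by the glutathione transferases Gsta2 (-7.67 ± 0.68, adjusted p = 2.67e-05) and Gstm3 (-3.90 ± 0.63, adjusted p = 0.00111) and the transporters Slco1a4 (-5.14 ± 0.62, adjusted p = 0.000163) and Abcc2 (-1.49 ± 0.28, adjusted p = 0.00231). Among 15 PPARα targets 4 fell, among them Acaa1b (-4.18 ± 0.61, adjusted p = 0.000572) and Fabp1 (-3.70 ± 0.65, adjusted p = 0.00166), and 2 rose (median -0.48), among them Fgf21 and Pdk4. Pdk4 overlapped between groups, with 3.31, 8.01 and 78.1 CPM in IL-6 and 3.52 and 2.34 CPM in GFP libraries. Its highest value was in IL-6 replicate 3, and no Pdk4 result without that library is given. Of 4 tested AhR targets Tiparp rose (3.01 ± 0.52, adjusted p = 0.00163) and Ugt1a6a fell (-1.83 ± 0.52, adjusted p = 0.0228).

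Promoters of Cyp2c, Cyp3a and Cyp2d genes are shown because these subfamilies held members that fell far, a little or not at all. RefSeq promoters (GRCm38.p6, 250 bases before to 50 after the start) matched 39 of the 49 genes, with 43 promoters in all, and the 150 bases before the start are printed, 5′ to 3′ in the direction of the gene. A letter motif of HNF4, a regulator of many liver genes, CAAAGTCCA on either strand, occurred in 16.3% of the P450 promoters and 0.475% of all 32851 promoters, in 7 genes: Cyp2c40, Cyp2c67, Cyp2c68, Cyp2c70, Cyp3a11, Cyp3a16 and Cyp3a41a. Some of these 7 genes are near copies: 40% of Cyp2c67 and 35.6% of Cyp2c68 transcript 50-mers are shared with Cyp2c40. Their promoters may therefore not be independent. The HNF4 letters are in capitals in the next 4 sequences.
Cyp2c67 (chr19:39649043-39649192, reverse strand): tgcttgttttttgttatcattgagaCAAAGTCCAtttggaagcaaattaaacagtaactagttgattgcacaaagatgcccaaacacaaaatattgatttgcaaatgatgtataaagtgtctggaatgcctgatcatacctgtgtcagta
Cyp2c68 (chr19:39741102-39741251, reverse strand): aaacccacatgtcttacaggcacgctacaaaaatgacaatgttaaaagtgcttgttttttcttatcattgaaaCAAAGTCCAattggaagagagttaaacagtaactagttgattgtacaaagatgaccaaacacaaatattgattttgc
Cyp2c70 (chr19:40187287-40187436, reverse strand): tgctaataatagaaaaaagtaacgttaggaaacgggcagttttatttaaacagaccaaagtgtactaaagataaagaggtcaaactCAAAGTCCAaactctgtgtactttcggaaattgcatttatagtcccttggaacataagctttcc
Cyp3a11 (chr5:145879855-145880004, reverse strand): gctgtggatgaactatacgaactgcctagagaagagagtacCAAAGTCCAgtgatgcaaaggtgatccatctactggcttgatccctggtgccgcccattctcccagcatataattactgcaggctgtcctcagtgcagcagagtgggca
Cyp3a13, which moved the other way, held none of the 8 motifs searched in these bases and has no capitals.
Cyp3a13 (chr5:137921620-137921769, reverse strand): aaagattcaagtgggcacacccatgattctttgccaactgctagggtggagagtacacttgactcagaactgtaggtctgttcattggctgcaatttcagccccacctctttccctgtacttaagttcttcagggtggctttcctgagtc
The nuclear receptor motif called a direct repeat with spacing 1 is in capitals in the 3 Cyp2d promoters that held it (6.98% of P450 promoters, 0.381% of all). These 3 promoters are much alike around the motif, so they may not be independent either.
Cyp2d9 (chr15:82452227-82452376, forward strand): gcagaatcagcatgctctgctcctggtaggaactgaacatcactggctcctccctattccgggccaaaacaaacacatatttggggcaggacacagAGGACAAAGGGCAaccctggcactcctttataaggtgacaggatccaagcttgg
Cyp2d10 (chr15:82407195-82407344, reverse strand): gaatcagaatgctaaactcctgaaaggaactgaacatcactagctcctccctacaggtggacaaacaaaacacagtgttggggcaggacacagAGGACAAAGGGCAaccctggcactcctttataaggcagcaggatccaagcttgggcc
Cyp2d40 (chr15:82764123-82764272, reverse strand): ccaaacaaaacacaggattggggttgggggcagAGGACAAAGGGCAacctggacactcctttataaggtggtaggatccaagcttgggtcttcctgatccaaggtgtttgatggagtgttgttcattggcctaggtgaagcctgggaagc
The core of the AhR response element, GCGTG, is in capitals in Cyp1a1 (16.3% of P450 promoters, 32.4% of all).
Cyp1a1 (chr9:57697463-57697612, forward strand): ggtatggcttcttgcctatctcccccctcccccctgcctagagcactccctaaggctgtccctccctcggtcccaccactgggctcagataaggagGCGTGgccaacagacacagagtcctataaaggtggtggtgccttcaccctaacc

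Cyp2c67, with the HNF4 letters, had 31.3, 25.9 and 71.4 CPM in IL-6 and 533 and 449 CPM in GFP libraries (-3.52 ± 0.38, adjusted p = 8.23e-05). Among the others with these letters, Cyp2c68 (-2.41 ± 0.48) and Cyp3a11 (-3.17 ± 0.51) also fell, and the low-level Cyp3a16 rose. Cyp2c40, Cyp2c70 and Cyp3a41a did not pass, so the letters occurred in genes of either direction and in genes without a call. The Cyp2d genes with the direct repeat fell by 1.07 (Cyp2d10) to 1.55 (Cyp2d9) on the log2 scale. The TATA box TATAAA was in 48.8% of P450 and 13.6% of all promoters, and the STAT letters TTCNNNGAA in 4.65% and 8.3%, in Cyp4b1 and Cyp4f13 only of the matched members. An E-box (CACGTG) occurred in 4.65% and 7.15%, C/EBP letters (TTNNGCAAT) in 6.98% and 2.18%, and the HNF1 motif in 0% and 0.0578%. All motifs were searched on both strands, and overlaps between motifs were not removed.

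IL-6 STAT3KO hepatocytes were compared with IL-6 hepatocytes to ask how the P450 genes differed between them. The STAT3KO mice were floxed and had received AAV-TBG-Cre, while the IL-6 mice were wild type and their labels list no virus. Loss of Stat3, the vector and the lower Il6 level therefore cannot be told apart in this comparison. Of the 49 genes 26 rose and 1 fell, while 13% of all tested genes rose and 13.4% fell. The median log2 fold change was 1.30 over the P450 genes and 0.00 over all genes, and in 30 P450 genes every IL-6 STAT3KO library lay above every IL-6 library (22.0% of all genes). Without IL-6 replicate 3 the median was 2.55, and 27 P450 genes rose. This comparison and the preceding one share the IL-6 libraries, so opposite directions in them are not independent.

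Cyp2a5 differed most among genes with counts in every library. It had 3792, 1934 and 5190 CPM in IL-6 STAT3KO libraries and 10.5 to 52.9 CPM in IL-6 libraries, a log2 fold change of 7.14 ± 0.74 (adjusted p = 4.08e-05); 37% of its transcript 50-mers are shared, mostly with Cyp2a4, so the 2 cannot be fully separated. Cyp2a4, not on the list, had 352, 482 and 663 CPM in IL-6 STAT3KO libraries and 6.55, 6.90 and 12.97 CPM in IL-6 libraries (5.82 ± 1.08, adjusted p = 0.00209). Both genes were higher in every STAT3KO library. Cyp2c55, which hydroxylates arachidonic acid, had 14.7, 43.5 and 32.8 CPM in IL-6 STAT3KO and 0.316, 0.123 and 0.436 CPM in IL-6 libraries (6.67 ± 0.86, adjusted p = 0.000185). Cyp2f2 had 1262, 953 and 1303 CPM in IL-6 STAT3KO libraries (4.95 ± 0.36, adjusted p = 4.38e-06) and Cyp1a2 had 1412, 672 and 1264 CPM (4.91 ± 0.73, adjusted p = 0.000479), each above all the IL-6 values given earlier. Cyp3a59 had 196, 148 and 356 CPM in IL-6 STAT3KO libraries (4.38 ± 0.50, adjusted p = 8.64e-05), likewise without overlap.

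Cyp3a13 was again the exception. It had 184, 225 and 209 CPM in IL-6 STAT3KO libraries and 774, 699 and 745 CPM in IL-6 libraries, a fall of 1.85 (SE 0.20, adjusted p = 5.38e-05) with no overlap. Cyp3a11 had 5496, 8010 and 8163 CPM in IL-6 STAT3KO and 971, 472 and 228 CPM in IL-6 libraries (3.70 ± 0.49, adjusted p = 0.000238). These 2 Cyp3a genes were thus called in opposite directions, each with groups that did not overlap.

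Cyp2e1 had 4560, 2162 and 2418 CPM in IL-6 STAT3KO libraries, all above the IL-6 libraries, but did not pass (1.27 ± 0.49, adjusted p = 0.0754). With DESeq2 it did (1.26, adjusted p = 0.0236), as it did with library totals as the scale (1.49, adjusted p = 0.0295). Cyp2b10 had 26.1, 25.6 and 10.3 CPM in IL-6 STAT3KO libraries and 0.473, 1.54 and 4.80 CPM in IL-6 libraries (3.15 ± 1.07, adjusted p = 0.0461), a call lost in 5 of the 6 fits that left out 1 library, in which the adjusted p reached 0.143; DESeq2 gave this gene no adjusted p. Cyp4a10 had 36.2, 45.5 and 10.9 CPM in IL-6 STAT3KO libraries (-0.03 ± 1.60, adjusted p = 0.994) and Cyp4a14 had 14.7, 18.8 and 3.09 CPM (-0.62 ± 1.60, adjusted p = 0.81), within the wide range of the IL-6 libraries; with both doubted libraries left out they were 5.36 (adjusted p = 0.00206) and 5.29 (adjusted p = 0.00559) and 30 P450 genes rose. Cyp1a1 had 1.98, 1.06 and 1.81 CPM in IL-6 STAT3KO libraries and overlapped with IL-6 (0.16 ± 1.11, adjusted p = 0.936).

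Among genes known as female-biased in mouse liver, Cyp2b9 was present in all IL-6 STAT3KO libraries, while Cyp3a41a and Cyp2c40 were high in replicate 2 only. Cyp3a41a and Cyp2c40 are nevertheless counted among the 26 genes called higher against IL-6. Their fold changes without replicate 2 are not given. Cyp2b9 had 661 counts over the IL-6 STAT3KO libraries (12.4 to 14.8 CPM) and 2 over the IL-6 libraries, a ratio of 301 with a 95% counting interval of 82.9 to 2490, and 0 counts in GFP libraries, so it was at least 135-fold higher than in GFP, though the edgeR test against GFP did not pass (adjusted p = 0.176). Cyp3a41a had 0.743, 54.4 and 0.117 CPM in IL-6 STAT3KO libraries and at most 0.493 CPM in IL-6 libraries, so replicate 3 lay below the highest IL-6 library. Cyp2c40 had 1.36, 22.9 and 0.350 CPM in IL-6 STAT3KO libraries and at most 0.312 CPM in IL-6 libraries, with 1.22 and 0.963 CPM in GFP libraries, above IL-6 STAT3KO replicate 3. For these genes 98.6% of Cyp3a41a and 60.3% of Cyp2c40 50-mers are shared with near copies. Cyp2g1, an enzyme best known from the olfactory mucosa, had 4.33, 8.13 and 12.7 CPM in IL-6 STAT3KO libraries and 2 counts over the IL-6 libraries, a ratio of 191 (52.4 to 1580). All 13 hepatocyte libraries carried Y-linked Ddx3y at 58.5 CPM or more and Xist at 0.557 CPM or less.

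Between IL-6 STAT3KO and IL-6 hepatocytes, 26.4% of all tested genes were called in either direction, the share against which the lists are read. In the same comparison 3 of 6 redox partners rose, led by Cyb5r3 (1.46 ± 0.24, adjusted p = 0.001), and Por did not pass. Alas1 rose (2.23 ± 0.55, adjusted p = 0.0107) with Fech, and Hmox1 and Hmox2 fell, so 2 of 12 haem genes rose and 2 fell (median 0.11). Of the 22 regulators 5 rose and 2 fell (median 0.23), with Nr1i3 at 32.3, 17.2 and 25.1 CPM in IL-6 STAT3KO libraries (1.76 ± 0.39, adjusted p = 0.00608) and Cux2 lower (-4.85 ± 0.47, adjusted p = 2.75e-05). Of 12 CAR and PXR targets 11 rose and 0 fell in edgeR (median 2.06), including Gstm3 with 365, 1390 and 1596 CPM in IL-6 STAT3KO and 2.92, 2.83 and 6.86 CPM in IL-6 libraries (8.05 ± 0.73, adjusted p = 1.81e-05). Of 15 PPARα targets 4 rose and 2 fell (median -0.03), and of 4 AhR targets 3 rose and 1 fell (median 1.39).

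**Figure D3:**
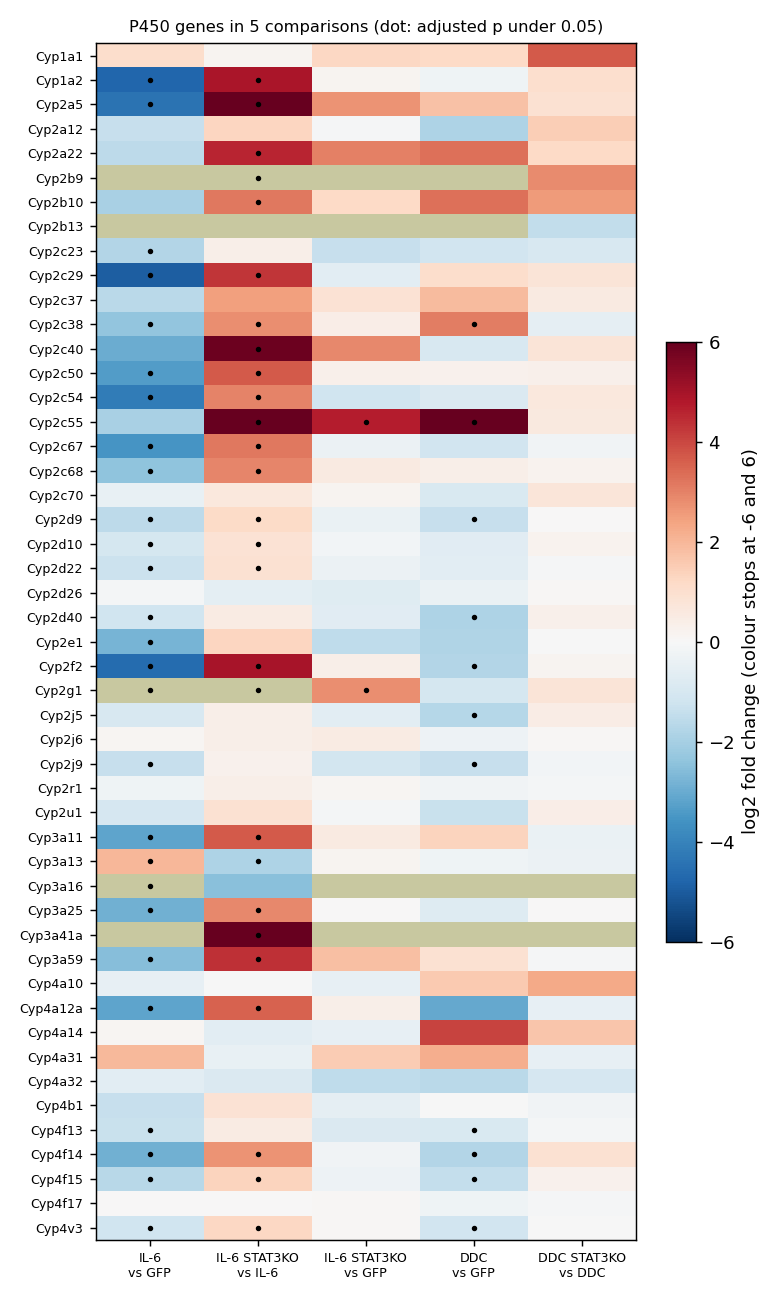
Log2 fold change (colour named first in each column over the group named after it, stopping at -6 and 6) of the 49 P450 genes (rows) in 5 comparisons (columns); a black dot marks an adjusted p under 0.05, and khaki cells have 3 or fewer counts in at least 1 of the groups, so no fitted fold is drawn. Most dots in the first column are on blue cells (25 lower, 2 higher) and most in the second on red cells (26 higher, 1 lower), and the last column has no dot.

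IL-6 STAT3KO hepatocytes were then set against GFP hepatocytes, which shows what IL-6 plasmid, vector and genotype together left different. Of the 49 genes 2 rose and 0 fell in edgeR, while 3.12% of all genes changed (2.26% rose and 0.865% fell); the median was 0.10 over the P450 genes and 0.02 over all. At an unadjusted p under 0.05 there were 11 P450 genes and 2743 genes in all, and DESeq2 called 5 P450 genes higher and 4 lower among 1146 genes called. Every IL-6 STAT3KO library lay above both GFP libraries for 13 genes and below for 11, against 22.2% and 22.4% of all genes. With IL-6 replicate 3 and DDC STAT3KO replicate 3 left out of the shared fit, 7 P450 genes rose and 5 fell.

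Cyp2c55 had 14.7, 43.5 and 32.8 CPM in IL-6 STAT3KO libraries and 1.60 and 0.688 CPM in GFP libraries (4.71 ± 0.86, adjusted p = 0.0109), and Cyp2g1 had 4.33, 8.13 and 12.7 CPM in IL-6 STAT3KO and 1.15 and 1.31 CPM in GFP libraries (2.77 ± 0.67, adjusted p = 0.0452). Neither overlapped between groups, but without either GFP library no P450 gene was called higher. Cyp2a5 stood at 1934 to 5190 CPM in IL-6 STAT3KO and 390 and 737 CPM in GFP libraries (2.69 ± 0.71, adjusted p = 0.0647), and Cyp2e1 at 2162 to 4560 CPM in IL-6 STAT3KO and 8794 and 8830 CPM in GFP libraries (-1.53 ± 0.53, adjusted p = 0.14). Both lay wholly outside the GFP range without passing. Cyp3a11, Cyp1a2 and Cyp2f2 overlapped with GFP and differed by at most 0.53 on the log2 scale, with SEs of 0.50, 0.69 and 0.34. The readouts Cyp1a1 (1.22 ± 1.35, adjusted p = 0.673), Cyp2b10 (1.20 ± 1.11, adjusted p = 0.604), Cyp4a10 (-0.50 ± 1.77, adjusted p = 0.917) and Cyp4a14 (-0.51 ± 1.76, adjusted p = 0.915) did not pass either.

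Of 12 CAR and PXR targets, Gstm3 (4.15 ± 0.72, adjusted p = 0.00828) and the drug efflux pump Abcb1a (3.54 ± 0.53, adjusted p = 0.00299) were higher in IL-6 STAT3KO than in GFP hepatocytes, and of 4 AhR targets Nqo1 was higher (2.49 ± 0.32, adjusted p = 0.000958). None of the 22 regulators, 6 redox partners, 12 haem genes or 15 PPARα targets was called by edgeR; at the smallest adjusted p these lists gave Cebpb (-2.20 ± 0.58, adjusted p = 0.0665), Pgrmc2 (-0.60 ± 0.19, adjusted p = 0.108), Cpox (-0.66 ± 0.26, adjusted p = 0.189) and Fabp1 (-1.13 ± 0.61, adjusted p = 0.341).

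DDC feeding gave a different P450 profile, though the DDC mice also differed from GFP mice in genotype, vector and the lack of a plasmid injection. Of the 49 genes 9 fell and 2 rose, while 8.29% of all genes fell and 10.4% rose; the median was -0.32 over the P450 genes and 0.02 over all. Both DDC libraries lay below both GFP libraries for 24 genes and above for 13, against 34.8% and 36.5% of all genes. The number of P450 genes that fell was 5 without DDC replicate 1, 1 without DDC replicate 2, 1 without GFP replicate 1 and 2 without GFP replicate 2, and the number that rose was 1 in each of these fits. A fit of only DDC and GFP libraries called 16 lower and 9 higher, and leaving out the 2 doubted libraries of other groups called 14 lower and 10 higher.

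Cyp2c55 rose most, with 179 and 38.8 CPM in DDC libraries and 1.60 and 0.688 CPM in GFP libraries (6.55 ± 0.93, adjusted p = 0.00156). Cyp2c38, of the same chromosome 19 cluster, had 112 and 73.8 CPM in DDC and 11.1 and 10.7 CPM in GFP libraries (3.09 ± 0.81, adjusted p = 0.0234). Neither overlapped, but the Cyp2c38 call was lost when any 1 library was left out, with an adjusted p of up to 0.142. In the same cluster Cyp2c29 had 5044 and 1211 CPM in DDC and 2076 and 963 CPM in GFP libraries (1.04 ± 0.73, adjusted p = 0.336), and Cyp2c67 had 227 and 218 CPM in DDC and 533 and 449 CPM in GFP libraries (-1.14 ± 0.41, adjusted p = 0.0683).

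The genes that fell were mostly of Cyp2d, Cyp2j and Cyp4f. Cyp2d40 had 16.2 and 9.22 CPM in DDC and 51.1 and 41.9 CPM in GFP libraries (-1.87 ± 0.39, adjusted p = 0.00844). Cyp4f14 had 87.9 and 91.2 CPM in DDC and 344 and 270 CPM in GFP libraries (-1.78 ± 0.32, adjusted p = 0.00461). Cyp2f2 had 353 and 199 CPM in DDC and 955 and 898 CPM in GFP libraries (-1.75 ± 0.38, adjusted p = 0.0106). All were lower in both DDC libraries, and of these 3 only Cyp4f14 kept its call whichever DDC or GFP library was left out. Cyp2j5, an arachidonic acid epoxygenase, had 330 and 213 CPM in DDC and 976 and 800 CPM in GFP libraries (-1.71 ± 0.41, adjusted p = 0.0162). Cyp4f15 had 78.8 and 73.9 CPM in DDC and 216 and 197 CPM in GFP libraries (-1.44 ± 0.39, adjusted p = 0.0256), and Cyp2d9, Cyp2j9, Cyp4f13 and Cyp4v3 also fell, by 0.92 to 1.40 on the log2 scale. The Cyp4f15 call was lost whichever DDC or GFP library was left out, with an adjusted p of up to 0.136, and the Cyp2j5 call in 3 of those 4 fits, with an adjusted p of up to 0.129.

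None of the AhR, CAR, PXR or PPARα readouts passed under DDC. Cyp3a11 had 15580 and 9972 CPM in DDC and 6371 and 3628 CPM in GFP libraries (1.35 ± 0.55, adjusted p = 0.104), Cyp2b10 had 130 and 46.4 CPM in DDC and 7.42 and 10.5 CPM in GFP libraries (3.30 ± 1.25, adjusted p = 0.0838), and Cyp4a14 had 284 and 295 CPM in DDC and 6.91 and 27.8 CPM in GFP libraries (4.06 ± 2.16, adjusted p = 0.202). All 3 were higher in both DDC libraries, and with the doubted libraries left out they passed at adjusted p = 0.0339, 0.00267 and 0.00633. Cyp1a1 had 1.48 and 1.69 CPM in DDC and 0.960 and 0.413 CPM in GFP libraries (1.19 ± 1.43, adjusted p = 0.587), Cyp1a2 overlapped (992 and 661 CPM in DDC, 1081 and 924 CPM in GFP; -0.28 ± 0.75, adjusted p = 0.826), and Cyp4a10 overlapped (61.1 and 196 CPM in DDC, 20.8 and 66.2 CPM in GFP; 1.56 ± 1.99, adjusted p = 0.613). Cyp2e1 had 2138 and 2888 CPM in DDC and 8794 and 8830 CPM in GFP libraries and missed the threshold (-1.81 ± 0.60, adjusted p = 0.0556), which it passed with DESeq2 (adjusted p = 0.00878).

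In DDC against GFP 18.6% of all tested genes were called in either direction, and the pathway lists are read against that share. Among CAR and PXR targets 3 of 12 rose and 0 fell in edgeR (median 0.38): Abcb1a had 70.0 and 56.6 CPM in DDC and 1.54 and 0.206 CPM in GFP libraries (6.15 ± 0.58, adjusted p = 0.000261), with Gstm3 (5.28 ± 0.78, adjusted p = 0.0019) and Abcc3 (1.23 ± 0.38, adjusted p = 0.0439). The AhR target Nqo1 rose (2.53 ± 0.33, adjusted p = 0.0011), 1 of 4. Of the 22 regulators 4 fell (Cebpa, Cebpb, Nr1h4 and Nr1i3) and 2 rose (Cux2 and Nfe2l2), with a median of -0.22; Nr1i3 had 10.7 and 17.0 CPM in DDC and 37.9 and 38.2 CPM in GFP libraries (-1.46 ± 0.47, adjusted p = 0.0471). Of 12 haem genes Hmox1 rose (3.41 ± 0.60, adjusted p = 0.004) and Cpox fell (-1.59 ± 0.29, adjusted p = 0.00524). Of 6 redox partners none was called by edgeR; the smallest adjusted p was 0.1, for Pgrmc2 (-0.51 ± 0.21). Of 15 PPARα targets only Fabp1 was called (-2.50 ± 0.72, adjusted p = 0.0324). Outside the P450 genes 4 of 10 periportal genes fell and 1 rose (median -1.12), and 0 of 10 pericentral genes were called by edgeR (median -0.42).

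Of the P450 genes known as sex-biased in mouse liver, Cyp2d9 fell under DDC, while Cyp4a12a and Cyp2b9 did not pass. The male-biased Cyp4a12a had 74.2 and 70.1 CPM in DDC and 722 and 473 CPM in GFP libraries (-3.05 ± 1.16, adjusted p = 0.0848), without overlap, and male-biased Cyp2d9 had 587 and 692 CPM in DDC and 1855 and 1528 CPM in GFP libraries (-1.40 ± 0.36, adjusted p = 0.02). Female-biased Cyp2b9 had 0.742 and 12.3 CPM in DDC libraries, 289 counts in all, and 0 counts in GFP libraries, at least 70.3-fold higher, though the edgeR test did not pass (adjusted p = 0.132). Its DDC level thus differed between the 2 libraries widely. Outside the P450 genes, of 9 tested sex-biased genes 3 fell and 1 rose (median -1.63): male-biased Slco1a1 had 44.7 and 34.7 CPM in DDC and 1199 and 950 CPM in GFP libraries (-4.76 ± 0.52, adjusted p = 0.000498), and female-biased Cux2 had 2.92 and 1.87 CPM in DDC and 0.192 and 0.275 CPM in GFP libraries (3.32 ± 0.56, adjusted p = 0.00347). In IL-6 against GFP libraries 3 of the 9 fell and 1 rose (median -0.57), with Slco1a1 at 3.55, 2.22 and 2.68 CPM in IL-6 libraries. In that comparison 12.2% of all tested genes fell and 13.7% rose.

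DDC STAT3KO hepatocytes did not differ from DDC hepatocytes in any P450 gene that passed. edgeR called 0 of the 49 genes and 0% of all 14339, with 4 P450 genes and 803 genes at an unadjusted p under 0.05, and DESeq2 called 15 genes, 0 of them P450. The median was 0.20 over the P450 genes and 0.01 over all. All DDC STAT3KO libraries lay above both DDC libraries for 4 genes and below for 1 (9.34% and 9% of all genes). The smallest adjusted p, 0.853, went with Cyp4f14 among others, at 179, 119 and 206 CPM in DDC STAT3KO and 87.9 and 91.2 CPM in DDC libraries (0.91 ± 0.29), with no overlap.

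The spread within DDC STAT3KO was wide because replicate 3 stood apart. Cyp1a1 had 1.69, 2.00 and 57.8 CPM in DDC STAT3KO and 1.48 and 1.69 CPM in DDC libraries (3.67 ± 1.32, adjusted p = 0.853). Cyp2b10 had 104, 91.9 and 1367 CPM in DDC STAT3KO and 130 and 46.4 CPM in DDC libraries (2.56 ± 1.15, adjusted p = 0.853). In both genes replicates 1 and 2 lay within or beside the DDC range, and without replicate 3 the log2 fold changes were 0.21 and 0.15. Cyp4a10 had 58.2, 40.5 and 1781 CPM in DDC STAT3KO and 61.1 and 196 CPM in DDC libraries (2.28 ± 1.94, adjusted p = 0.864), and Cyp4a14 had 71.2, 141 and 2527 CPM in DDC STAT3KO and 284 and 295 CPM in DDC libraries (1.66 ± 1.84, adjusted p = 0.891). Without replicate 3 their direction turned, at -1.38 and -1.45, and the median over the P450 genes was -0.18.

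The abundant genes of this comparison overlapped. Cyp3a11 had 8854, 10150 and 10390 CPM in DDC STAT3KO and 15580 and 9972 CPM in DDC libraries (-0.38 ± 0.49, adjusted p = 0.902). Cyp2e1 had 1591, 1343 and 4482 CPM in DDC STAT3KO and 2138 and 2888 CPM in DDC libraries (-0.02 ± 0.54, adjusted p = 0.998). Cyp1a2 had 504, 994 and 3519 CPM in DDC STAT3KO and 992 and 661 CPM in DDC libraries (1.02 ± 0.71, adjusted p = 0.854), and Cyp2f2 had 192, 296 and 448 CPM in DDC STAT3KO and 353 and 199 CPM in DDC libraries (0.18 ± 0.34, adjusted p = 0.932). With these SEs the comparison was imprecise for these genes, so the absence of calls does not show that the groups were alike.

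For the pathway lists of the same comparison edgeR made no call in any of the 22 regulators, 6 redox partners, 12 haem genes, 4 AhR, 12 CAR and PXR or 15 PPARα targets. Cux2 had the smallest adjusted p, 0.112, with 0.0968, 0.272 and 0.299 CPM in DDC STAT3KO and 2.92 and 1.87 CPM in DDC libraries (-3.41 ± 0.48). Alas1 followed in the haem list (1.74 ± 0.63, adjusted p = 0.853), with 554, 1128 and 2904 CPM in DDC STAT3KO and 528 and 385 CPM in DDC libraries.

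The STAT3KO difference itself was compared between stimuli with an interaction term, the IL-6 difference minus the DDC difference. It was positive and called in 13 P450 genes and negative and called in 1, while 4.20% and 4.08% of all tested genes were called positive and negative; the median was 1.27 over the P450 genes and -0.02 over all. The positive genes were Cyp1a2, Cyp2a5, Cyp2c29, Cyp2c50, Cyp2c55, Cyp2c67, Cyp2c68, Cyp2f2, Cyp2g1, Cyp3a11, Cyp3a25, Cyp3a59 and Cyp4f14, and the negative gene was Cyp3a13. The positive count was 9 without DDC replicate 1, 20 without DDC STAT3KO replicate 3 and 26 without that library and IL-6 replicate 3, and no P450 gene was called negative without DDC replicate 2. The Cyp1a2 call was lost in 4 of the 11 fits that left out 1 library, with an adjusted p of up to 0.0843.

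**Figure D4:**
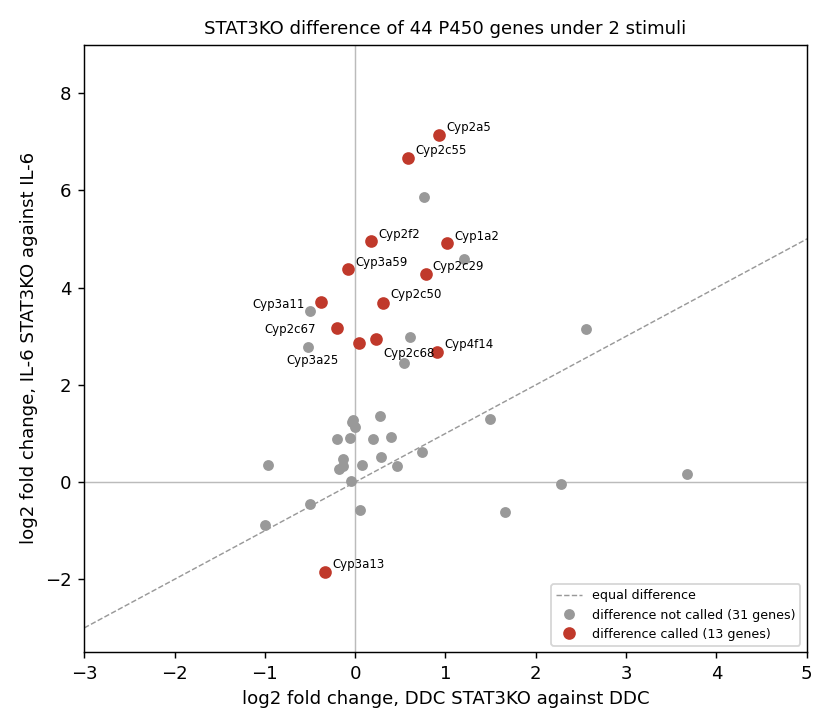
STAT3KO log2 fold change of P450 genes under IL-6 (y axis, IL-6 STAT3KO over IL-6) against the same under DDC (x axis, DDC STAT3KO over DDC), with a dashed line where both are equal; red points are genes with a called difference between the 2. Shown are 44 genes, 13 of them called, since 5 genes with 3 or fewer counts in a group are left out; 12 red points lie above the line and Cyp3a13 below it. The axes rest on different libraries.

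In these genes STAT3KO and non-deleted hepatocytes differed more under IL-6 than under DDC. Cyp2f2 gave 4.95 ± 0.36 under IL-6 and 0.18 ± 0.34 under DDC, an interaction of 4.78 ± 0.46 (adjusted p = 0.000189). Cyp2a5 gave 7.14 ± 0.74 under IL-6 and 0.93 ± 0.65 under DDC (interaction 6.21 ± 0.89, adjusted p = 0.00169), and Cyp3a59 gave 4.38 ± 0.50 under IL-6 and -0.08 ± 0.49 under DDC (interaction 4.46 ± 0.67, adjusted p = 0.00216). Cyp2c55 gave 6.67 ± 0.86 under IL-6 and 0.59 ± 0.64 under DDC (interaction 6.08 ± 1.06, adjusted p = 0.00509), and Cyp3a11 gave 3.70 ± 0.49 under IL-6 and -0.38 ± 0.49 under DDC (interaction 4.08 ± 0.67, adjusted p = 0.00369). Cyp3a13 gave -1.85 ± 0.20 under IL-6 and -0.33 ± 0.22 under DDC (interaction -1.52 ± 0.30, adjusted p = 0.0089). Cyp1a1, Cyp2b10, Cyp4a10 and Cyp4a14 did not pass, with interactions of -3.52 ± 1.66, 0.60 ± 1.44, -2.31 ± 2.46 and -2.28 ± 2.42. Of the CAR and PXR targets 5 of 12 had a positive called interaction and 0 a negative one in edgeR (median 2.05), led by Gsta2 (8.54 ± 0.81, adjusted p = 0.000186) and Gstm3 (8.24 ± 0.87, adjusted p = 0.000266).

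**Figure D5:**
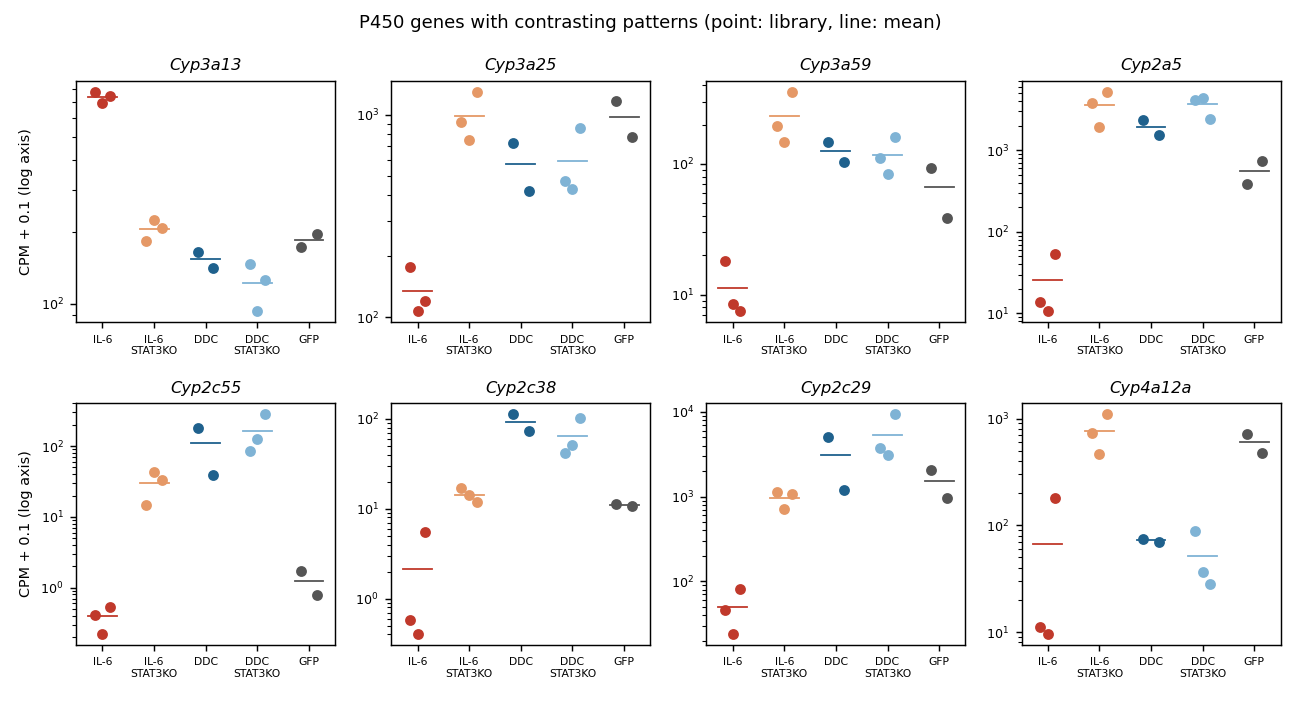
CPM plus 0.1 on a log axis for 8 P450 genes with unlike patterns; each point is a library, each line a group mean, and groups run as IL-6, IL-6 STAT3KO, DDC, DDC STAT3KO and GFP. Cyp3a13 is highest in the 3 IL-6 libraries (699 to 774 CPM), where Cyp3a25, Cyp3a59, Cyp2a5, Cyp2c55 and Cyp2c29 are at their lowest, and Cyp4a12a is low in both DDC groups as well as in IL-6 replicates 1 and 2.

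P450 genes differed in which group stood apart. Cyp2c55 and Cyp2c38 had their highest levels in the DDC groups, with 85.1, 127 and 280 CPM and 41.5, 51.0 and 102 CPM in DDC STAT3KO libraries. Cyp4a12a had 728, 470 and 1094 CPM in IL-6 STAT3KO and 11.1, 9.55 and 178 CPM in IL-6 libraries (3.52 ± 0.97, adjusted p = 0.0185), and 88.2, 36.8 and 27.98 CPM in DDC STAT3KO libraries, so it was high only in IL-6 STAT3KO and GFP libraries. Counting may divide reads of near copies, since 48.9% of Cyp4a12a 50-mers are shared, mostly with Cyp4a12b. Of the 49 genes 22 share over 10% of their 50-mers with another gene and 14 share over 25%, and 6 share none (Cyp2c23, Cyp2c70, Cyp2f2, Cyp2j9, Cyp2r1 and Cyp3a13).

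Further members filled in each subfamily. Cyp2c50 had 29.8, 28.4 and 79.0 CPM in IL-6 and 490 and 451 CPM in GFP libraries (-3.36 ± 0.51, adjusted p = 0.000726), and 555, 599 and 600 CPM in IL-6 STAT3KO libraries. Cyp2c23 fell in IL-6 libraries, with 266, 133 and 86.2 CPM in IL-6 and 587 and 491 CPM in GFP libraries (-1.74 ± 0.42, adjusted p = 0.0103), but unlike Cyp2c50 it was not called in IL-6 STAT3KO against IL-6, where it had 234, 202 and 181 CPM in IL-6 STAT3KO libraries (0.35 ± 0.38, adjusted p = 0.549). Whether these 2 genes differ in that response was not tested.

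Cyp2d22 had 140, 104 and 113 CPM in IL-6 and 294 and 283 CPM in GFP libraries (-1.28 ± 0.23, adjusted p = 0.00214), and Cyp4v3, a fatty acid hydroxylase, had 367, 227 and 174 CPM in IL-6 and 667 and 501 CPM in GFP libraries (-1.19 ± 0.30, adjusted p = 0.012). Both rose in IL-6 STAT3KO against IL-6 hepatocytes, Cyp2d22 at 296, 186 and 190 CPM in IL-6 STAT3KO libraries (0.91 ± 0.21, adjusted p = 0.00792) and Cyp4v3 at 578, 555 and 679 CPM in IL-6 STAT3KO libraries (1.24 ± 0.27, adjusted p = 0.00582). In each the IL-6 STAT3KO libraries lay above all IL-6 libraries. Cyp2j9 had 5.37, 3.51 and 4.43 CPM in IL-6 and 13.5 and 9.70 CPM in GFP libraries (-1.39 ± 0.36, adjusted p = 0.0136) but 6.06, 4.59 and 5.31 CPM in IL-6 STAT3KO libraries (0.27 ± 0.33, adjusted p = 0.595), which overlapped with IL-6.

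Cyp2a22 was nearly absent from IL-6 libraries (0.552, 0.555 and 0.249 CPM in IL-6) and higher in IL-6 STAT3KO libraries, at 17.8, 8.63 and 6.06 CPM in IL-6 STAT3KO libraries (4.58 ± 1.17, adjusted p = 0.013). Its relative Cyp2a12 was abundant and variable, with 473, 336 and 113 CPM in IL-6 and 793 and 790 CPM in GFP libraries (-1.37 ± 0.67, adjusted p = 0.154), and with 386 and 50.7 CPM in DDC libraries. Cyp2a12 was thus lower in every IL-6 and DDC library than in either GFP library without passing (DDC against GFP -1.86 ± 0.77, adjusted p = 0.108). Cyp2c37 had 2.37, 2.40 and 45.4 CPM in IL-6 and 50.2 and 51.4 CPM in GFP libraries (-1.60 ± 1.04, adjusted p = 0.282), again with IL-6 replicate 3 far above the other IL-6 libraries. The fatty acid hydroxylase Cyp2u1 had 11.9, 10.5 and 9.10 CPM in IL-6 and 29.7 and 12.9 CPM in GFP libraries (-1.02 ± 0.57, adjusted p = 0.206).

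Of the 49 genes 15 were called in no comparison, among them Cyp2r1, Cyp2j6, Cyp2d26, Cyp2c70, Cyp4f17 and the receptor readouts Cyp1a1, Cyp4a10 and Cyp4a14. Cyp4f17, a little-studied Cyp4f, ranged from 4.71 to 12.4 CPM over all 13 libraries, and Cyp2j6, an arachidonic acid epoxygenase, from 84.7 to 184 CPM. Cyp2d26 ranged from 299 to 1208 CPM and Cyp2c70 from 283 to 1867 CPM over all 13 libraries. Cyp2d26 varied several-fold within DDC STAT3KO (299, 544 and 1208 CPM), and Cyp2c70 within IL-6 (1278, 791 and 283 CPM). In GFP libraries each was closer together, at 953 and 782 CPM for Cyp2d26 and 1106 and 1050 CPM for Cyp2c70. The extrahepatic Cyp4b1, best known from lung, stood at 5.29, 5.36 and 0.935 CPM in IL-6 libraries and 7.93 and 12.5 CPM in GFP libraries (-1.40 ± 0.54, adjusted p = 0.0762).

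Genes of the same families outside the list added 5 calls in IL-6 against GFP, 2 higher and 3 lower of 11 tested. Over all tested genes 25.9% were called in this comparison. Cyp2d41-ps (12.8, 17.3 and 23.4 CPM in IL-6, 1.02 and 1.86 CPM in GFP; 3.63 ± 0.54, adjusted p = 0.0006) and Cyp4f16 (17.7, 14.1 and 11.7 CPM in IL-6, 2.94 and 2.82 CPM in GFP; 2.33 ± 0.52, adjusted p = 0.00706) rose. Cyp2a4 (-4.89 ± 1.07, adjusted p = 0.00601), Cyp2d37-ps (-2.52 ± 0.48, adjusted p = 0.00281) and Cyp2c53-ps, with 0 counts in IL-6 and 47 in GFP libraries and so at least 23.3-fold lower, fell. In IL-6 STAT3KO against IL-6 libraries Cyp2a4, Cyp2d37-ps, Cyp2d12 (3.0 ± 0.79, adjusted p = 0.0144) and Cyp2c53-ps rose and Cyp2d41-ps fell (-3.94 ± 0.46, adjusted p = 9.54e-05), and in DDC against GFP libraries Cyp4f16 rose (2.32 ± 0.55, adjusted p = 0.0151) and Cyp2d37-ps fell (-2.70 ± 0.56, adjusted p = 0.00844).

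In the 12 sorted immune libraries, which were deposited as a separate table and were not tested against hepatocytes, the 49 genes summed to 73 to 1400 CPM. The highest sums were in T cells after DDC (1400 and 908 CPM), which also held 2210 and 1270 CPM of the hepatocyte transcript Alb, and the lowest was in a Ly6C-high monocyte library (73 CPM) with 7.07 CPM of Alb. Cyp3a11, the P450 gene with the most counts there, had 486 and 139 CPM in T cells and 1.35 and 12.3 CPM in Ly6C-high monocytes, so it was high where Alb was high. Cyp4b1 did not follow Alb: it had 27.8 and 8.81 CPM in macrophages after DDC and 270 and 167 CPM in macrophages on normal diet, with 269 and 173 CPM in neutrophils and 10.5 and 177 CPM in T cells after DDC. Cyp4f13 had 22.5 and 36.2 CPM in macrophages after DDC and 63.0 and 64.4 CPM in macrophages on normal diet.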

How the data were processed

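The 49 genes and every gene list were chosen with earlier results of these data known. The authors deposited whole-number counts per gene, 1 table for hepatocytes and 1 for immune cells; STAR, HTSeq, DESeq2 and mm10 are named in the submitters' processing notes, but their versions, the strand setting and the annotation are not stated in any source used. Hepatocyte counts summed to 13.6 to 18.4 M and immune counts to 3.82 to 12.9 M per library, the lowest gene total in the hepatocyte table was 10, and EGFP was left out.

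From the counts, edgeR 4.0.16 (limma 3.58.1, R 4.3.3) was run with TMM factors, filterByExpr by group and quasi-likelihood tests over all 13 hepatocyte libraries (8 residual df, common BCV 0.313), with Benjamini-Hochberg adjustment over 14339 genes at 0.05; SEs were the size of log2FC over the square root of F. The test was also tried on counts simulated from mean levels of these data with the common BCV for every gene. Spread of single genes and libraries that stand apart were not simulated, and no result here rests on it. Where a group held no count, folds are bounds against a floor of 3 counts over the group; ratios on 1 to 3 counts carry 95% intervals, and both cover counting error only. Genes named per comparison were the 5 largest called changes in each direction with a mean of at least 20 CPM, with the receptor readouts, key enzymes and list leaders in every comparison; others named for a count or for standing apart were chosen after their values were seen. Shared 50-mers came from GENCODE M21 transcripts (GRCm38). Alternatives were no filter, library totals, median-of-ratios factors, DESeq2 1.42.0, only the compared groups, the replicate number as a block and each library left out; leaving out IL-6 replicate 3 with DDC STAT3KO replicate 3 was added after seeing the data.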

Additional observations from a re-analysis of the deposited data

Results flagged for a closer look

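In 14 P450 genes the STAT3KO difference under IL-6 and that under DDC were themselves different by the interaction test of edgeR, with an adjusted p under 0.05 over all tested genes. The difference between the 2 log2 fold changes, IL-6 minus DDC, was 6.21 for Cyp2a5, 6.08 for Cyp2c55, 4.78 for Cyp2f2, 4.46 for Cyp3a59, 4.08 for Cyp3a11, 3.90 for Cyp1a2, 3.51 for Cyp2c29, 3.37 for Cyp2c67, 3.36 for Cyp2c50, 2.83 for Cyp3a25, 2.71 for Cyp2c68 and 1.78 for Cyp4f14, and it was -1.52 for Cyp3a13. For Cyp2g1 it was 6.60 in the fit, a value that depends on the 2 counts this gene had over the IL-6 libraries and is no bound. The IL-6 groups had wild-type mice as their non-deleted animals and the DDC groups floxed mice with AAV-TBG-GFP, so genotype and vector differ between the 2 contrasts too and cannot be told apart from the stimulus. Plasmid Il6 was also 3.20 CPM or more in IL-6 and 1.05 CPM or less in IL-6 STAT3KO libraries, and the part of this difference in the P450 values was not tested.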

How the results depend on the processing

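The 2 DDC and 2 GFP libraries set the limit: groups of 2 give wide errors, and DDC STAT3KO replicate 3 and IL-6 replicate 3 dominate the Cyp1a1, Cyp2b10 and Cyp4a values. Of 31 called values of named P450 genes, 22 kept their call under all settings run, and of 856 gene values under alternatives 47 changed sign, 755 kept direction and side of the threshold, 26 newly passed and 28 no longer passed; for 18 gene values DESeq2 gave no adjusted p. Where a count or sign moved, the cause was not tested.

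With DESeq2, IL-6 STAT3KO against GFP gave 1146 genes, 5 P450 genes higher and 4 lower, DDC against GFP 6 P450 genes higher, DDC STAT3KO against DDC 15 genes, and the interaction 1881 genes. With only the compared groups, IL-6 STAT3KO against GFP gave 927 genes, 6 P450 genes higher and 5 lower, and DDC against GFP 4415 genes, 9 higher and 16 lower; Cyp2e1 in DDC STAT3KO against DDC was 0.00. With library totals as the scale the median over all genes stood at -0.18 (IL-6 against GFP), 0.23 (IL-6 STAT3KO against IL-6), 0.26 (DDC against GFP) and 0.27 (interaction), where TMM gave 0.04, 0.00, 0.02 and -0.02; 1 P450 gene was lower in IL-6 STAT3KO than in GFP, Cyp4a14 was -0.06 (IL-6 against GFP) and Cyp4a10 was 0.15 (IL-6 STAT3KO against IL-6). On TMM-scaled library sizes the P450 share in IL-6 was 0.727%.

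With IL-6 replicate 3 and DDC STAT3KO replicate 3 left out together, IL-6 STAT3KO against GFP gave 1175 genes, 7 P450 genes higher and 5 lower, DDC against GFP 4061 genes, 10 higher and 14 lower, and the interaction 2163 genes and 26 P450 genes higher with a median of 3.14. The IL-6 STAT3KO against IL-6 median was 2.55. Cyp4a14 was then -5.79 in IL-6 against GFP; Cyp4a10 and Cyp4a14 were 5.36 and 5.29 (IL-6 STAT3KO against IL-6), -1.37 and -1.44 (DDC STAT3KO against DDC) and 6.73 and 6.73 (interaction); Cyp1a2 and Cyp2f2 were -0.14 and -0.18 in DDC STAT3KO against DDC, and Cyp1a1 was 0.07 in the interaction.

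Whether the replicate numbers pair the libraries is not stated in the labels. Deviations of same-numbered IL-6 STAT3KO and IL-6 libraries from their group means correlated with r of -0.187, 0.118 and 0.104. With so few libraries per group these values cannot decide it. With the replicate block, the P450 genes higher and lower were 2 and 27 (IL-6 against GFP), 26 and 1 (IL-6 STAT3KO against IL-6), 3 and 0 (IL-6 STAT3KO against GFP), 2 and 10 (DDC against GFP), 0 and 0 (DDC STAT3KO against DDC) and 17 and 1 (interaction). Under the replicate block Cyp4a14 was -3.55 in IL-6 against GFP, Cyp4a10 and Cyp4a14 were 3.83 and 3.08 (IL-6 STAT3KO against IL-6), -0.98 and -1.51 (DDC STAT3KO against DDC) and 4.82 and 4.59 (interaction), and Cyp1a2 was -0.06 in IL-6 STAT3KO against GFP. Cyp2e1 passed at 1.43 (IL-6 STAT3KO against IL-6, adjusted p = 0.0315) and -1.79 (DDC against GFP, adjusted p = 0.0368), and the P450 median was 2.71 in IL-6 STAT3KO against IL-6, where it was 1.30 without the block.

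Leaving out each library in turn gave, for IL-6 against GFP, 1651 to 3450 genes, 1 P450 gene higher and 17 to 27 lower; for IL-6 STAT3KO against IL-6, 2541 to 3564 genes, 20 to 27 higher and 1 to 2 lower; for IL-6 STAT3KO against GFP, 89 to 434 genes, 0 to 2 higher and 0 to 1 lower; for DDC against GFP, 607 to 1220 genes, 1 higher and 1 to 5 lower; for DDC STAT3KO against DDC, 0 to 1 genes and a median of -0.18 to 0.39; and for the interaction, 459 to 1611 genes, 9 to 20 higher and 0 to 1 lower. In the same fits Cyp4a10 and Cyp4a14 spanned 0: -5.86 to 0.61 and -5.80 to 1.45 (IL-6 against GFP), -0.63 to 5.38 and -1.23 to 5.30 (IL-6 STAT3KO against IL-6), -1.10 to 0.58 and -1.18 to 0.83 (IL-6 STAT3KO against GFP), -1.38 to 3.34 and -1.45 to 2.20 (DDC STAT3KO against DDC), and -3.35 to 3.09 and -2.87 to 3.65 (interaction). So did Cyp1a1 (-0.14 to 0.38, IL-6 STAT3KO against IL-6), Cyp1a2 (-0.05 to 0.42, IL-6 STAT3KO against GFP, and -0.14 to 1.45, DDC STAT3KO against DDC), Cyp2e1 (-0.78 to 0.25) and Cyp2f2 (-0.19 to 0.65) in DDC STAT3KO against DDC, and Cyp2b10 (-0.33 to 3.0) in the interaction.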
